A study of Homo sapiens with 6 samples.

Results

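The genes described here encode the proteasome, the protease complex that degrades ubiquitin-tagged proteins, together with its activators, its inhibitor and the chaperones that assemble it. They were taken as all mRNA rows whose symbol is PSM, a letter from A to G and a number. Of the 48 rows that match, 2 were left out by the rule, PSMD8 and PSMC4. The rule uses names and no measured value. It gave 46 genes of the 41768 named genes in the table, of which 20452 are of type mRNA. The 5 interferon-inducible members, PSMB8, PSMB9, PSMB10, PSME1 and PSME2, were set apart from the other 41. Poly(A)-selected RNA from 2 pancreatic ductal adenocarcinoma (PDAC) cell lines was sequenced on an Illumina HiSeq, and the deposited values for the 6 libraries are FPKM, the fragments of a gene scaled to its length and to the depth of the library. The lines are PANC-1, an established line of human PDAC, and one that the labels name 90. Each line has 1 library labelled NC and 2 labelled siALDOA, read here as small interfering RNA against ALDOA, the gene of the glycolytic enzyme aldolase A. The sources used here do not give the meaning of NC and 90, the dose and duration of the treatment, or whether siALDOA 1 and siALDOA 2 are different siRNAs. Separate cultures are not named in the labels either, so every p-value below measures a spread between libraries that may be only technical. Within a line, values are listed in the order NC, siALDOA 1, siALDOA 2.

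The 26S proteasome is a barrel, the 20S core, capped by the 19S regulatory particle. The core has outer rings of alpha subunits, which gate the entrance, and inner rings of beta subunits, of which PSMB5, PSMB6 and PSMB7 carry the proteolytic sites. The regulatory particle binds ubiquitin chains, removes them, and unfolds and translocates the substrate with a ring of ATPases. Interferon gamma induces PSMB8, PSMB9 and PSMB10, which replace PSMB5, PSMB6 and PSMB7 in newly assembled cores to form the immunoproteasome, and PSME1 and PSME2, which form the PA28 cap. Both change the peptides that reach MHC class I molecules. NRF1, the product of NFE2L1, is the factor known for raising the constitutive proteasome genes together when proteasome activity falls short.

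The sequence just upstream of the start of the 5 interferon-inducible genes is shown because they share an inducer, and that of PSMB5 is shown as a constitutive counterpart. Of the listed starts of PSMB8, the one with a match is shown. The window of its first start holds none, and neither window of PSMB5 does. Sequences are from RefSeq on GRCh38.p14, are written 5′ to 3′ on the strand of the gene, and are in lower case with each match to the interferon-stimulated response element core (GAAA, any 2 bases, GAAA, on either strand) in capitals. Each ends at the last base before the start of the gene, except that those of PSMB8 and PSME1 run on to the end of the match. PSMB8 lies at chr6:32844042-32844147 (minus strand, the second of its listed starts), PSMB9 at chr6:32854092-32854191 (plus strand), PSMB10 at chr16:67936851-67936950 (minus strand), PSME1 at chr14:24136094-24136208 (plus strand), PSME2 at chr14:24146611-24146710 (minus strand) and PSMB5 at chr14:23035221-23035320 (minus strand, the first of its listed starts).
PSMB8: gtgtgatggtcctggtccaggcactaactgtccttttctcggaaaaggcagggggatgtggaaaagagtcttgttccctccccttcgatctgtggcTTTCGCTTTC
PSMB9: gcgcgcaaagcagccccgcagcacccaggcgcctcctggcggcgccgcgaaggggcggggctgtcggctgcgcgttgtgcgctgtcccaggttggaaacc
PSMB10: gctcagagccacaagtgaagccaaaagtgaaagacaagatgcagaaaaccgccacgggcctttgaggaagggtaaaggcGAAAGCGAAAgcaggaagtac
PSME1: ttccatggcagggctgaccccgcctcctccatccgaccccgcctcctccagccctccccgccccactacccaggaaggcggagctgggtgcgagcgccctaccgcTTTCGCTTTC
PSME2: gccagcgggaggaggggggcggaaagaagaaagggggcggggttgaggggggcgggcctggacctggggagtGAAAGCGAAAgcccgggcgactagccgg
PSMB5: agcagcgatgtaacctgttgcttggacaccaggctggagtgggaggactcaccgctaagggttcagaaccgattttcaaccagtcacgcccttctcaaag

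The 4 matches printed above have the same letters, GAAAGCGAAA or its reverse complement TTTCGCTTTC. Counted from the start of the gene, with the first transcribed base as 1, the match of PSME2 covers -28 to -19 and that of PSMB10 covers -21 to -12. The match of PSMB8 covers -4 to 6, and that of PSME1 covers 6 to 15. Windows of 300 bases, from 250 before to 50 after each start, were searched on both strands for 40 of the 46 members that matched the promoter table. The core was found in 4 of 5 interferon-inducible members and in 3 of 35 others, PSMA4, PSMB4 and PSMG4, against 3.574% of all 35116 windows in the table. The gamma-activated site TTCNNNGAA was found in 7 of 40 members, of which PSMB8 is the only interferon-inducible one, against 7.657% of windows. The antioxidant response element core TGACNNNGC, which NRF1 binds with small MAF proteins, was found in 14 of 40 members against 13.35% of windows. The CCAAT box, bound by NF-Y, was found in 19 of 40 members against 34.61% of windows. A gene with several listed starts counts as holding a motif when any of its windows does, and 4.376% of all 27305 genes held the interferon-stimulated core on that count, 9.376% the gamma-activated site, 16.06% the antioxidant core and 39.72% the CCAAT box. These matches describe letters in a window and are not measurements of binding.

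Depth recovered from the values was 17.7 to 21.8 M fragments per library (M for mega), at which 3 fragments on a gene of 1 kb are 0.138 to 0.169 FPKM. ALDOA was at 36.1% and 43.8% of its NC value in the siALDOA libraries of 90, and at 55.3% and 51.0% in those of PANC-1. All 5 epithelial markers (KRT8, KRT18, KRT19, EPCAM and CDH1) reached 1 FPKM in every library, with CDH1 at 1.18 to 2.05 FPKM in PANC-1, and the 5 summed to 3388 to 5293 FPKM. Of 4 acinar markers none reached 1 FPKM, and their sum was at most 0.637. Of 5 leukocyte markers only CD68 reached 1 FPKM (31.3 to 51.2 in 90 and 124 to 162 in PANC-1), and PTPRC was at or below 0.0169 FPKM. Of 5 fibroblast markers only COL1A1 reached 1 FPKM (1.20 to 13.7), and of 4 endothelial markers only CDH5 did, in 90 (3.0 to 3.28), where PANC-1 is listed at 0. The lowest value of a tested member in any library was 2.19 FPKM, so all 44 tested members passed the filter of a mean of 1 FPKM in both lines. The other 2 members are tissue-restricted core subunits. PSMB11, the beta subunit of the thymus, is listed at 0 in all 6 libraries. PSMA8, the alpha subunit of the testis, is listed at 0 in 5 libraries and at 0.0584 FPKM in siALDOA 2 of PANC-1.

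PANC-1 had less RNA of 4 of the 5 interferon-inducible genes than 90 by limma at an adjusted p under 0.05. Of all tested genes, 18.4% were lower. PSMB8 and PSME1 differed most, by 9.34-fold and 4.13-fold in mean FPKM. PSMB9 was 3.03-fold and PSME2 1.78-fold lower in PANC-1. PSMB10 and the constitutive counterparts PSMB5, PSMB6 and PSMB7 did not pass the test in the main analysis. In bulk RNA, fewer cells of a type and less RNA per cell cannot be told apart.

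PSMB8 encodes the inducible chymotrypsin-like subunit, which takes the place of PSMB5. It was at 50.4, 52.5 and 72.0 FPKM in 90 and at 6.38, 6.99 and 5.36 FPKM in PANC-1. All 3 libraries of 90 lay far above all 3 of PANC-1. The log2 difference, PANC-1 minus 90 on the scale log2(FPKM + 1), was -3.02 (SE 0.20, limma with Benjamini-Hochberg adjustment over 12592 genes, adjusted p = 0.000478). PSMB5 itself was at 185, 148 and 202 FPKM in 90 and at 172, 173 and 141 FPKM in PANC-1. The lines overlapped for PSMB5, with a log2 difference of -0.13 (SE 0.17, limma adjusted p = 0.598).

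PSMB9, the inducible counterpart of the caspase-like subunit PSMB6, is the lowest of the 3 inducible catalytic genes in 90. Its values were 14.2, 14.9 and 23.1 FPKM in 90 and 6.62, 5.94 and 4.65 FPKM in PANC-1. The lines did not overlap, and the log2 difference was -1.43 (SE 0.26, limma adjusted p = 0.0108). PSMB6 was at 153, 122 and 166 FPKM in 90 and at 210, 216 and 157 FPKM in PANC-1. For PSMB6 the siALDOA 2 library of PANC-1 lay within the range of 90, and the log2 difference was 0.40 (SE 0.19, limma adjusted p = 0.169). PSMB8 and PSMB9 lie next to each other in the MHC region of chromosome 6, with PSMB8 at 32840717 to 32844703 on the minus strand and PSMB9 at 32844136 to 32859585 on the plus strand (GENCODE v29, GRCh38). Their annotated exons overlap on opposite strands, and whether the authors' counting used strand is not stated, so reads from that stretch may have been assigned to either gene.

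PSMB10 differs from the other inducible catalytic genes. This counterpart of the trypsin-like subunit PSMB7 was at 53.0, 42.4 and 65.0 FPKM in 90 and at 57.0, 50.9 and 38.8 FPKM in PANC-1. Its ranges overlapped, with a log2 difference of -0.12 (SE 0.22, limma adjusted p = 0.724). The difference became 0.082 without siALDOA 2 of 90 and 0.019 without siALDOA 2 of PANC-1. PSMB10 lies on chromosome 16 (67934502 to 67937087, minus strand), outside the MHC region. PSMB7 was at 209, 174 and 240 FPKM in 90 and at 312, 315 and 238 FPKM in PANC-1. Its siALDOA 2 library of PANC-1 lay just below the highest library of 90, and the log2 difference was 0.47 (SE 0.19, limma adjusted p = 0.108). PSMB7 did pass as higher in PANC-1 after rescaling to TPM (limma adjusted p = 0.0369) and after quantile normalization (limma adjusted p = 0.0334).

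**Figure D1:**
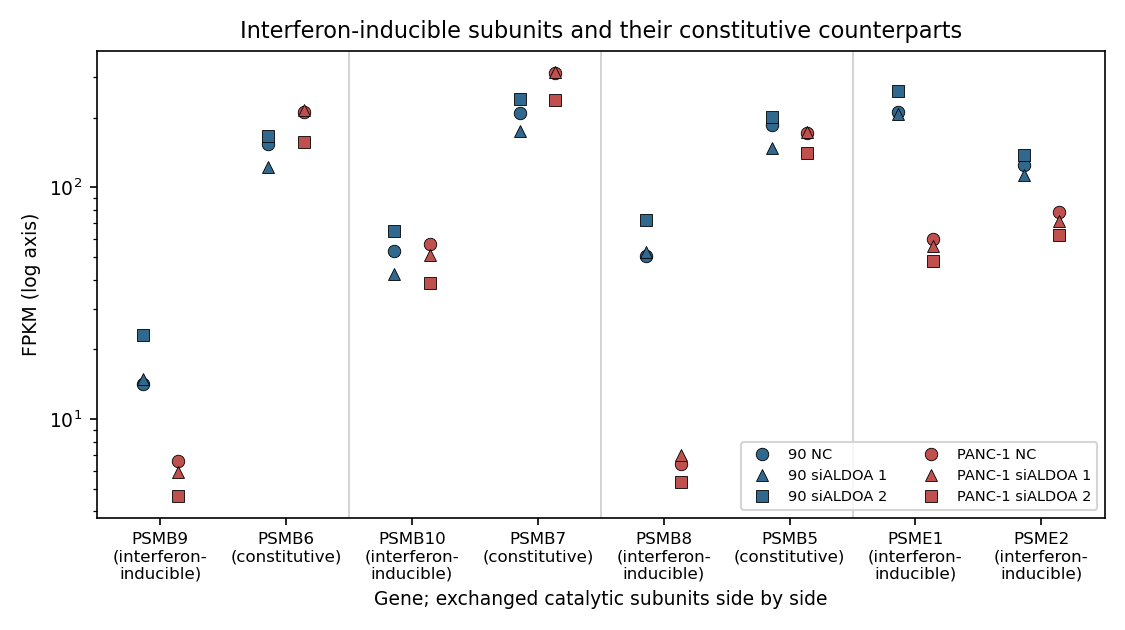
FPKM on a log axis of the 5 interferon-inducible genes and the 3 constitutive catalytic genes, with 1 point per library, 90 in blue and PANC-1 in red; circles are NC, triangles siALDOA 1 and squares siALDOA 2. The 3 libraries of 90 lie above those of PANC-1 for PSMB8, PSMB9, PSME1 and PSME2, and the lines overlap for PSMB10, PSMB5, PSMB6 and PSMB7.

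Dividing each inducible gene by its counterpart within a library removes any scaling of the library as a whole. The share of PSMB8 in the summed FPKM of PSMB8 and PSMB5 was 21.4, 26.2 and 26.3% in 90 and 3.57, 3.88 and 3.67% in PANC-1. PSMB9 made up 8.51, 10.8 and 12.2% of PSMB9 and PSMB6 in 90 and 3.05, 2.68 and 2.87% in PANC-1. PSMB10 made up 20.3, 19.6 and 21.3% of PSMB10 and PSMB7 in 90 and 15.4, 13.9 and 14.0% in PANC-1. The lines did not overlap for any of the 3 shares, PSMB10 included. In means, the shares of PSMB8, PSMB9 and PSMB10 were 24.6 ± 2.81%, 10.5 ± 1.87% and 20.4 ± 0.885% in 90 (SD, n = 3). The means in PANC-1 were 3.71 ± 0.158%, 2.87 ± 0.186% and 14.5 ± 0.855% (SD, n = 3), so PSMB10 had the largest inducible share of the 3 in that line. The log2 ratio of inducible to constitutive, PANC-1 minus 90, was -2.89 for PSMB8, -1.83 for PSMB9 and -0.60 for PSMB10. Each gave an exact two-sided permutation p of 0.1, also after adjustment over the 3 pairs, and 0.1 is the smallest p that 3 libraries against 3 allow. These are shares of RNA per length and not of assembled particles.

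**Figure D2:**
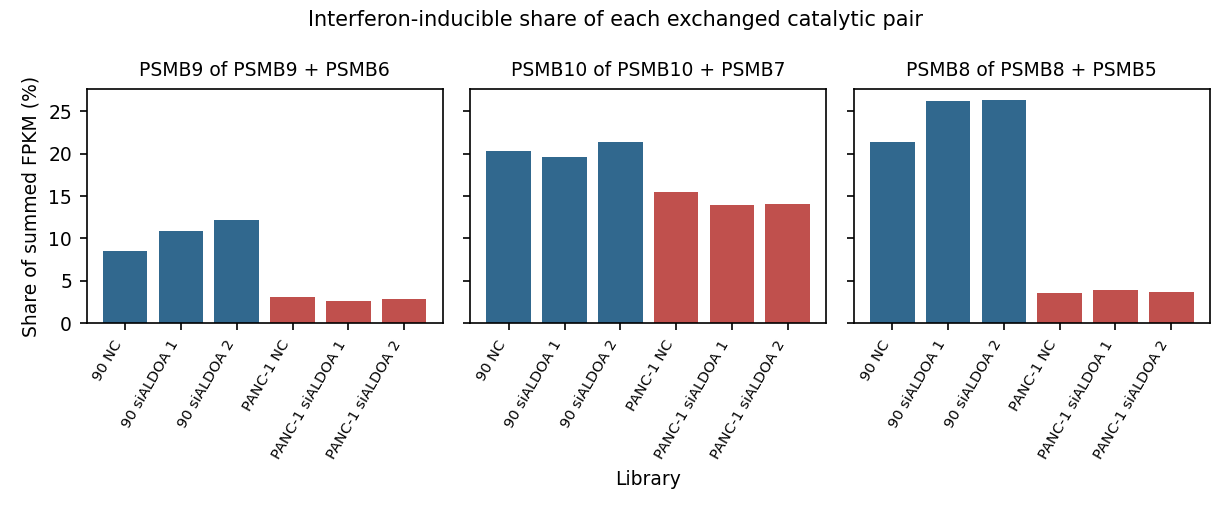
Share of the interferon-inducible gene in the summed FPKM of each exchanged pair (percent, axis from 0), with 1 bar per library, 90 in blue and PANC-1 in red. Every bar of 90 is higher than every bar of PANC-1, with PSMB8 at 21.4 to 26.3% against 3.57 to 3.88%.

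The genes of the PA28 cap were also lower in PANC-1. PSME1, the alpha subunit, was at 211, 206 and 260 FPKM in 90 and at 59.9, 56.1 and 48.0 FPKM in PANC-1. Every library of 90 was above every library of PANC-1, with a log2 difference of -2.02 (SE 0.16, limma adjusted p = 0.000793). PSME2, the beta subunit, was at 125, 113 and 139 FPKM in 90 and at 78.0, 71.6 and 62.1 FPKM in PANC-1. Its lines did not overlap either, and the log2 difference was -0.83 (SE 0.14, limma adjusted p = 0.00893). The call of PSME2 was lost without the NC library of either line, with an adjusted p of up to 0.0567 in limma. Either way, the line difference then rests on the same siALDOA libraries. PSME1 and PSME2 lie close together on chromosome 14, at 24136158 to 24138967 (plus strand) and at 24143362 to 24147570 (minus strand). The ratio of PSME1 to PSME2, a pair whose proteins form a mixed ring, was 1.68, 1.82 and 1.87 in 90 and 0.768, 0.783 and 0.773 in PANC-1. PSME1 thus had the higher value of the pair in every library of 90, and PSME2 in every library of PANC-1. This ratio was chosen after its values were seen. PSME2 shares exon sequence with RNF31 on the opposite strand, and RNF31 was at 30.7, 25.8 and 33.6 FPKM in 90 and at 8.80, 9.58 and 7.84 FPKM in PANC-1. PSME1 overlaps EMC9 in the same way, and EMC9 was at 33.1 to 48.1 FPKM in 90 and 30.8 to 37.0 FPKM in PANC-1. The part of these overlaps in the PA28 values was not tested.

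Several genes that deliver and present proteasome products were lower in PANC-1 as well. Of 13 tested genes of peptide supply to MHC class I, HLA-F passed the filter only through 90, and of the other 12, 7 were lower and 0 higher by limma at an adjusted p under 0.05, where 18.4% of all tested genes were lower and 20.4% higher. HLA-F, a non-classical class I gene, was at 29.2, 33.9 and 56.4 FPKM in 90 and at 1.08, 0.945 and 0.848 FPKM in PANC-1. HLA-B, a classical class I gene, was at 274, 306 and 517 FPKM in 90 and at 20.1, 19.6 and 14.5 FPKM in PANC-1 (log2 difference -4.23, SE 0.29, limma adjusted p = 0.000548). HLA-C, also classical, had a log2 difference of -3.37 (SE 0.28, limma adjusted p = 0.000914). TAP1 and TAP2, the chains of the peptide transporter and neighbours of PSMB8 and PSMB9, B2M, HLA-E and PDIA3 were the other called genes. Class I genes are near-identical copies of each other and vary between people, so the assignment of reads among them is uncertain.

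Of 16 genes that control the interferon response of these members, 14 were tested. NLRC5 passed the filter only through 90, and of the other 13, 4 were lower and 1 higher in PANC-1 by limma at an adjusted p under 0.05. Of all tested genes, 18.4% were lower and 20.4% higher. With NLRC5 included, 42.9% of the 14 were called, near the 38.8% of all tested genes. IRF9, the DNA-binding part of the ISGF3 complex, was at 109, 95.3 and 125 FPKM in 90 and at 5.49, 5.59 and 4.90 FPKM in PANC-1 (log2 difference -4.12, SE 0.16, limma adjusted p = 0.000179). NLRC5, the transactivator of class I genes, was at 5.31, 5.87 and 9.14 FPKM in 90 and at 0.494, 0.591 and 0.467 FPKM in PANC-1. IRF7, a factor induced by interferon, had a log2 difference of -2.13 (SE 0.27, limma adjusted p = 0.00328). IRF1 and STAT2 were the other lower genes. IRF1, a factor that binds the promoters of inducible proteasome genes, was at 15.9, 13.0 and 17.8 FPKM in 90 and at 6.10, 6.74 and 5.86 FPKM in PANC-1. JAK1, a receptor kinase, was the higher one, with a log2 difference of 1.17 (SE 0.34, limma adjusted p = 0.0489), a call lost without any of 5 of the 6 libraries, the exception being siALDOA 1 of 90. The whole list, NLRC5 included, gave 3 calls, all lower, without the NC library of 90 or of PANC-1.

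Over all 44 tested members, 16 (36.4%) differed between the lines by limma at an adjusted p under 0.05, where 38.8% of all 12592 tested genes did. Of the 16, 10 (62.5%) were higher in PANC-1 and 6 lower, where 52.6% of all called genes were higher. Of all tested genes, 20.4% were higher and 18.4% lower. The members outside the interferon-inducible group gave 10 higher and 2 lower of 39, with a median log2 difference of 0.43, and the interferon-inducible ones 0 higher and 4 lower of 5, with a median of -1.43. The median over all tested genes was 0.13. That median moved to 0.023 when libraries were scaled by the median ratio, and 5 members were then called higher and 5 lower. The count of 16 fell to 6 without the NC library of 90 and to 6 without that of PANC-1. In both cases the line difference rests on the same siALDOA libraries, so these are not separate checks. It was 10 without siALDOA 1 of 90, 10 without siALDOA 1 of PANC-1 and 8 without siALDOA 2 of PANC-1. Without overlap, 14 members (31.8%) lay higher in all 3 libraries of PANC-1 than in all 3 of 90, and 6 (13.6%) lower, where the shares over all tested genes were 29% and 25.1%. PSMB8, PSMB9, PSME1, PSMD13 and PSMG1 passed the test in the main analysis and in all 18 alternatives.

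**Figure D3:**
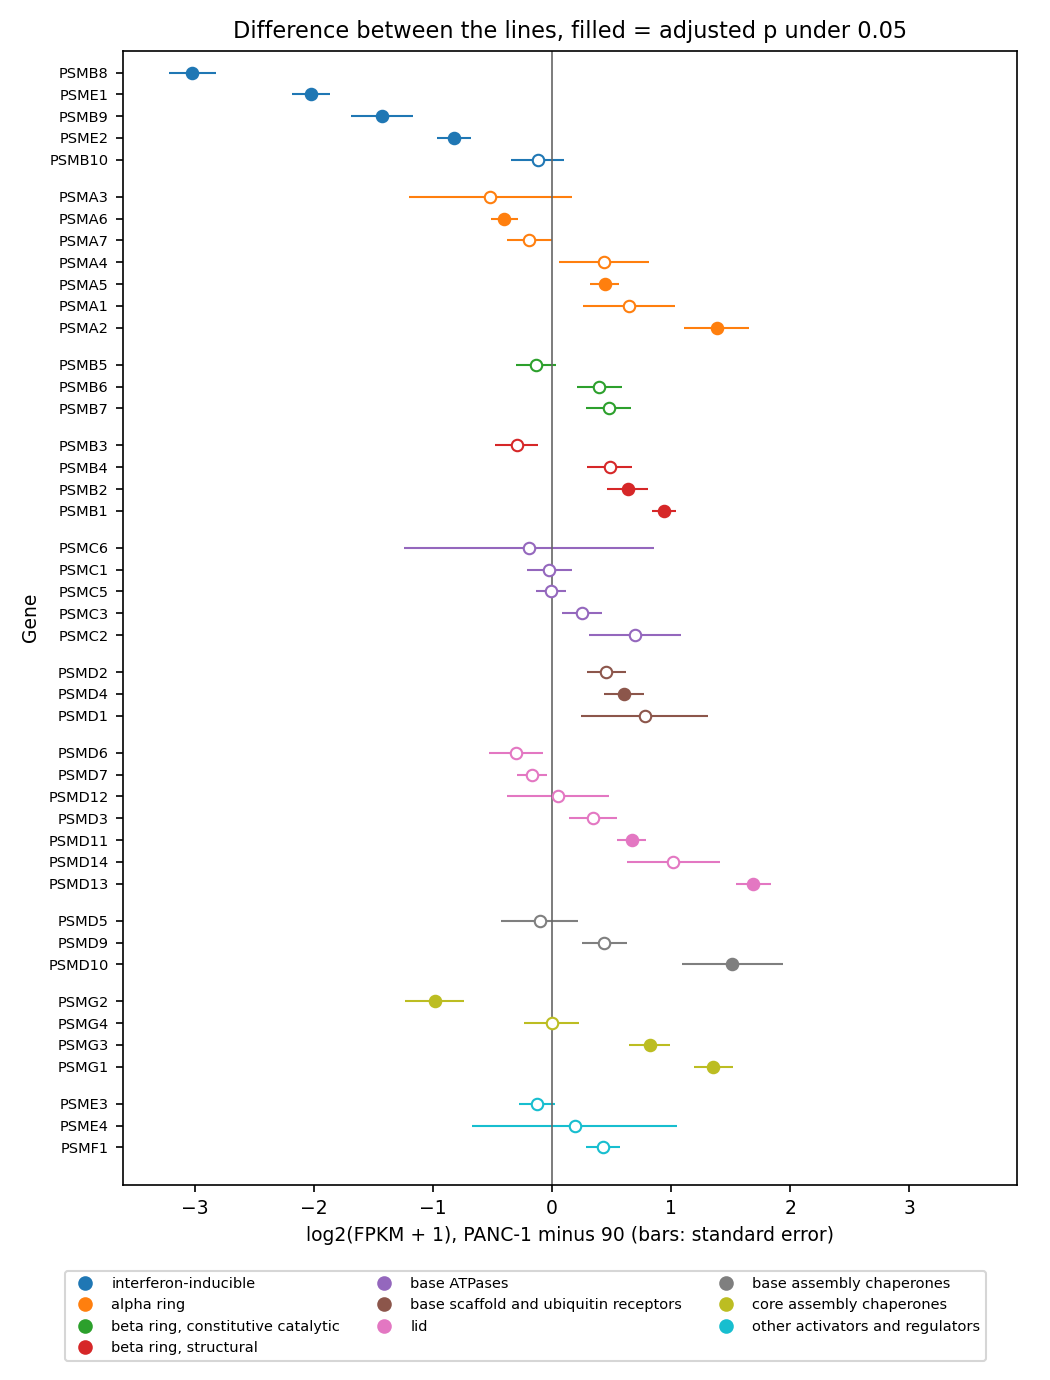
Difference between the lines, PANC-1 minus 90 in log2(FPKM + 1), for the 44 tested members by role, with bars of 1 standard error from limma; filled points passed an adjusted p of 0.05. The interferon-inducible genes lie between -3.02 and -0.12, and the largest difference among the others is that of PSMD13 at 1.69.

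Among the 7 alpha ring genes, 2 were higher in PANC-1, PSMA2 and PSMA5, and 1 was lower, PSMA6. That is 42.9% called, near the 38.8% of all tested genes. PSMA2 was at 54.7, 72.5 and 55.1 FPKM in 90 and at 202, 110 and 179 FPKM in PANC-1. Its lines did not overlap, and the log2 difference was 1.38 (SE 0.27, limma adjusted p = 0.0147), a call lost without the NC library of either line or without siALDOA 2 of either line. PSMA2 shares exon sequence with MRPL32 on the opposite strand, which was at 24.8 to 25.9 FPKM in 90 and 48.9 to 58.4 FPKM in PANC-1. PSMA6 was at 201, 198 and 171 FPKM in 90 and at 145, 136 and 148 FPKM in PANC-1, a log2 difference of -0.40 (SE 0.11, limma adjusted p = 0.0449). PSMA5, at 24.4 to 29.9 FPKM in 90 and 36.8 to 38.5 FPKM in PANC-1, was called at an adjusted p of 0.0422 in limma. The calls of PSMA5 and PSMA6 were lost in 13 of 18 alternatives each.

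In the beta ring, 2 of the 4 structural genes were higher in PANC-1 (50% called, against 38.8% of all tested genes). PSMB1 was at 188, 179 and 187 FPKM in 90 and at 373, 364 and 330 FPKM in PANC-1. The values within each line lay close together, and the log2 difference was 0.94 (SE 0.10, limma adjusted p = 0.00218). Its call was lost in 1 of 18 alternatives, the correction for GC content (limma adjusted p = 0.272). PSMB2 was at 37.7, 30.4 and 40.7 FPKM in 90 and at 58.6, 62.5 and 49.2 FPKM in PANC-1 (log2 difference 0.63, SE 0.17, limma adjusted p = 0.0387). The call of PSMB2 was lost in 11 of 18 alternatives. PSMB3 and PSMB4 did not pass, though the 3 libraries of PANC-1 lay above those of 90 for PSMB4 (415.1 to 544 against 288 to 414.8 FPKM).

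In the 19S base, 0 of the 5 ATPase genes among the members passed the test, where 38.8% of all tested genes did. The log2 differences of the 5 ranged from -0.19 to 0.69. The rule left out a further ATPase gene, PSMC4. Of the 3 genes of scaffolds and ubiquitin receptors 1 (33.3%) passed. PSMD4, which encodes the ubiquitin receptor RPN10, was at 217, 180 and 237 FPKM in 90 and at 333, 354 and 277 FPKM in PANC-1 (log2 difference 0.60, SE 0.17, limma adjusted p = 0.0412), a call lost in 10 of 18 alternatives. Of the 7 lid genes among the members, which lack PSMD8 by the rule, 2 were higher in PANC-1 and 0 lower. That is 28.6% called, against 38.8% of all tested genes. PSMD13, which encodes the lid subunit RPN9, was at 76.2, 66.6 and 78.9 FPKM in 90 and at 254, 263 and 206 FPKM in PANC-1. All 3 libraries of PANC-1 were far above those of 90, with a 3.26-fold higher mean FPKM and a log2 difference of 1.69 (SE 0.15, limma adjusted p = 0.00106). SIRT3, which shares exon sequence with PSMD13 on the opposite strand, was at 2.85, 3.06 and 3.39 FPKM in 90 and at 12.7, 13.3 and 10.9 FPKM in PANC-1. PSMD11, which encodes RPN6, a subunit that clamps the lid to the core, was at 56.2, 52.8 and 54.9 FPKM in 90 and at 79.1, 97.4 and 86.4 FPKM in PANC-1 (log2 difference 0.67, SE 0.12, limma adjusted p = 0.0117), a call lost in 6 of 18 alternatives. PSMD14, the deubiquitinase of the lid, did not pass, at 30.0, 51.7 and 27.1 FPKM in 90 and 81.7, 46.3 and 96.2 FPKM in PANC-1.

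The assembly chaperones gave calls in both directions. Of the 4 chaperones of the core, 2 were higher and 1 lower, where 20.4% of all tested genes were higher and 18.4% lower. PSMG1, which pairs with PSMG2 to build the alpha ring, was at 19.9, 16.9 and 13.3 FPKM in 90 and at 44.9, 40.8 and 45.7 FPKM in PANC-1. PSMG2 was at 43.7, 56.0 and 35.6 FPKM in 90 and at 24.7, 17.1 and 24.7 FPKM in PANC-1. The 2 partners therefore stood in opposite order in the lines: PSMG1 was higher in PANC-1 (log2 difference 1.35, SE 0.16, limma adjusted p = 0.00277) and PSMG2 lower (-0.99, SE 0.24, limma adjusted p = 0.0294). The call of PSMG2 was lost in 6 of 18 alternatives. PSMG3, which acts with PSMG4 at the same step, was higher in PANC-1 (23.7 to 32.6 FPKM in 90 and 41.1 to 59.1 FPKM in PANC-1, limma adjusted p = 0.019), and this call too was lost in 6 of 18. PSMG4 did not pass. Of the 3 chaperones of the base, 1 was higher. PSMD10, also known as gankyrin, was at 15.6, 21.0 and 8.04 FPKM in 90 and at 38.0, 31.9 and 58.9 FPKM in PANC-1 (log2 difference 1.51, SE 0.42, limma adjusted p = 0.043). The call of PSMD10 was lost in 8 of 18 alternatives. Of the other activators and regulators, the nuclear activator subunit PSME3, the activator PSME4 and the inhibitor PSMF1, 0 of 3 passed.

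Levels per length differed widely between the members, also among the alpha ring genes, whose proteins enter the particle in equal numbers. In 90 the highest member was PSMA7, at 515 ± 92.4 FPKM (SD over the NC and siALDOA libraries of the line, n = 3), followed by PSMB4 at 354 ± 63.7 and PSMB3 at 338 ± 48.2. In PANC-1 PSMB4 stood first at 492 ± 68.2 FPKM (SD, n = 3), with PSMA7 at 449 ± 64.7 and PSMB1 at 356 ± 22.9. PSMB4 and PSMB3 in 90, and PSMB4 and PSMA7 in PANC-1, differed by less than their SDs, while PSMA7 and PSMB4 in 90 and PSMA7 and PSMB1 in PANC-1 differed by more. The lowest tested member in 90 was PSME4, at 7.58 ± 6.95 FPKM (SD, n = 3). In PANC-1 the lowest were PSMB9 at 5.74 ± 1.0 FPKM and PSMB8 at 6.24 ± 0.822 FPKM (SD, n = 3), which differed by less than their SDs. Within the alpha ring the highest gene, PSMA7 in every library, exceeded the lowest by 10.1-fold to 24.1-fold depending on the library. The constitutive catalytic genes were more alike, with the highest 1.36 to 1.82 times the lowest. The sources used here do not give the gene lengths behind the FPKM values, and 11 members have pseudogenes named after them in GENCODE v29 (13 for PSMC1 and 4 for PSMA6) to which reads could have been assigned. In all, 23 members share exon sequence with another annotated gene.

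Genes outside the PSM symbols that work with the proteasome were read in the same comparison. Of 13 proteasome factors, 2 were higher and 1 lower in PANC-1 by limma at an adjusted p under 0.05, so 23.1% were called where 38.8% of all tested genes were. AKIRIN1 was at 18.1, 20.8 and 16.7 FPKM in 90 and at 55.0, 69.6 and 66.1 FPKM in PANC-1 (log2 difference 1.72, SE 0.14, limma adjusted p = 0.000957), and its paralog AKIRIN2, which brings proteasomes into the nucleus, did not pass. TXNL1, a thioredoxin-like protein bound to the regulatory particle, was higher (1.13) and FAM192A, an interactor of the PSME3 activator, lower (-0.93 on the log2 scale). Without the NC library of 90 or of PANC-1 this list gave 1 call, and without siALDOA 1 of PANC-1 it gave 5. Of 11 genes of transcriptional control, 4 were higher and 1 lower (45.5% called, near the 38.8% of all tested genes). NFE2L1 was at 53.0, 49.7 and 58.3 FPKM in 90 and at 105, 142 and 113 FPKM in PANC-1 (log2 difference 1.14, SE 0.15, limma adjusted p = 0.00388). MAFK, a small MAF partner of NRF1, and NFYC, a subunit of NF-Y, were also higher (2.11 and 1.14 on the log2 scale), and MAFF, another small MAF gene, was lower (-0.80), a call lost in 10 of 18 alternatives. This list gave 3 calls without the NC library of either line or siALDOA 2 of either line. Of 13 tested genes of ubiquitin, its activation and its shuttles, 4 were higher and 0 lower (30.8% called, against 38.8%), led by the shuttle gene UBQLN1 (1.40), the ubiquitin-activating enzyme UBA1 (0.85) and NPLOC4 (0.77), a cofactor of the segregase VCP. This last count became 0 without the NC library of 90 or of PANC-1, 2 without siALDOA 1 of either line or siALDOA 2 of PANC-1, and 1 under median-ratio scaling.

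No member passed the test for siALDOA against NC. Over both lines, limma called 0 of 44 members and 0 of 12592 genes at an adjusted p under 0.05, and at an unadjusted p under 0.05 it gave 0 members and 43 genes (0.341%). Within 90 the unadjusted counts were 0 members and 33 genes (0.262%), within PANC-1 0 and 21 (0.167%), and for the difference between the lines 0 and 24 (0.191%). These shares lie far below the 0.05 of genes expected at that threshold with no effect, so the tests were conservative. ALDOA itself, at 36.1% to 55.3% of its NC value, was not called either. Changes of that size can therefore be missed, and the absence of calls does not show an absence of response. No other tool was run on this comparison. The siALDOA coefficient over both lines had a median of -0.082 over the 44 members, of which 36 were below 0. Over all 12592 tested genes its median was 0.011, and 5944 were below 0. The members share their libraries, so their signs are not independent.

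Relative to the NC library of the line, the median log2 change of the 5 interferon-inducible genes was -0.030 in siALDOA 1 and 0.30 in siALDOA 2 of 90, and -0.12 and -0.32 in PANC-1. All 5 were above NC in siALDOA 2 of 90, and 0 of 5 in siALDOA 2 of PANC-1. Of all 12592 tested genes, 6334 and 6662 were above NC in these 2 libraries. Of the 15 members of highest GC content, which include all of the 5 but PSMB9, 13 and 1 were above NC there. The medians of the 39 other tested members in the same order were -0.11, -0.035, -0.053 and -0.13, and those of all tested genes lay between -0.022 and 0.029. Of the peptide supply genes, 13 of 13 were above NC in 90 in the mean of the 2 siALDOA libraries (median 0.31), and none passed the test. By the same measure 5633 of 12592 tested genes were above NC.

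The members with the smallest siALDOA p in each direction, outside the interferon-inducible group, had small changes. PSMG3 was at 32.6, 23.7 and 30.3 FPKM in 90 and at 59.1, 55.5 and 41.1 FPKM in PANC-1, below NC in all 4 siALDOA libraries (log2 -0.29, SE 0.19, limma unadjusted p = 0.184). PSMG1 (-0.22) and PSMA7 (-0.19) followed, and PSMA7 was above NC in 1 of the 4 libraries, siALDOA 2 of 90, at 589 against 545 FPKM. On the other side stood PSMD11 (0.076, SE 0.13, limma unadjusted p = 0.589), PSMD5 and PSME4. PSMD5, a chaperone of the base, was at 16.8, 18.7 and 9.60 FPKM in 90 and at 10.2, 14.1 and 16.7 FPKM in PANC-1. PSME4 was at 4.15, 15.6 and 3.0 FPKM in 90 and at 8.08, 2.19 and 16.6 FPKM in PANC-1, so the 2 siALDOA libraries lay on opposite sides of NC in both lines. Below NC in all 4 siALDOA libraries were PSMA5, PSMB1 and PSMG3 (6.82% of members, 5.82% of all tested genes), and above NC in all 4 were 0 members (3.39% of all tested genes). Split between the lines, with both siALDOA libraries above NC in 90 and below it in PANC-1, were PSMA2, PSMA3 and PSMB9 (6.82% of members, 2.61% of all tested genes). PSMD11 was split the other way (2.27% of members, 7.3% of all tested genes). The distance of PSMA2 from NC in siALDOA 2 of 90 was only 0.010 on the log2 scale.

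The siALDOA libraries with the same number moved in opposite ways in the lines, along the GC content of the genes. GC content was taken from the longest GENCODE v29 transcript of each member. The 15 members at 32.0 to 43.6% GC had a median difference from NC of 0.36 and -0.23 in siALDOA 1 and 2 of 90 and of -0.47 and 0.075 in PANC-1, on the log2 scale. Other tested genes in this range gave 1.02, -0.048, -0.71 and 0.49. In the 15 members of highest GC content (51.3 to 60.1%), 2, 13, 8 and 1 of 15 were above NC in the 4 libraries in this order, with medians of -0.28, 0.13, 0.0065 and -0.32. Of the 5 interferon-inducible members, 4 belong to these 15, and PSMB9 does not. The medians of other tested genes between 51.3 and 60.1% GC were -0.20, 0.059, 0.13 and -0.12. Across the 44 members, Pearson's r of GC content with the change was -0.61, 0.28, 0.49 and -0.61 and Spearman's rho was -0.71, 0.45, 0.46 and -0.67, a description across genes that share their libraries. The part of GC content in the siALDOA values was not tested.

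**Figure D4:**
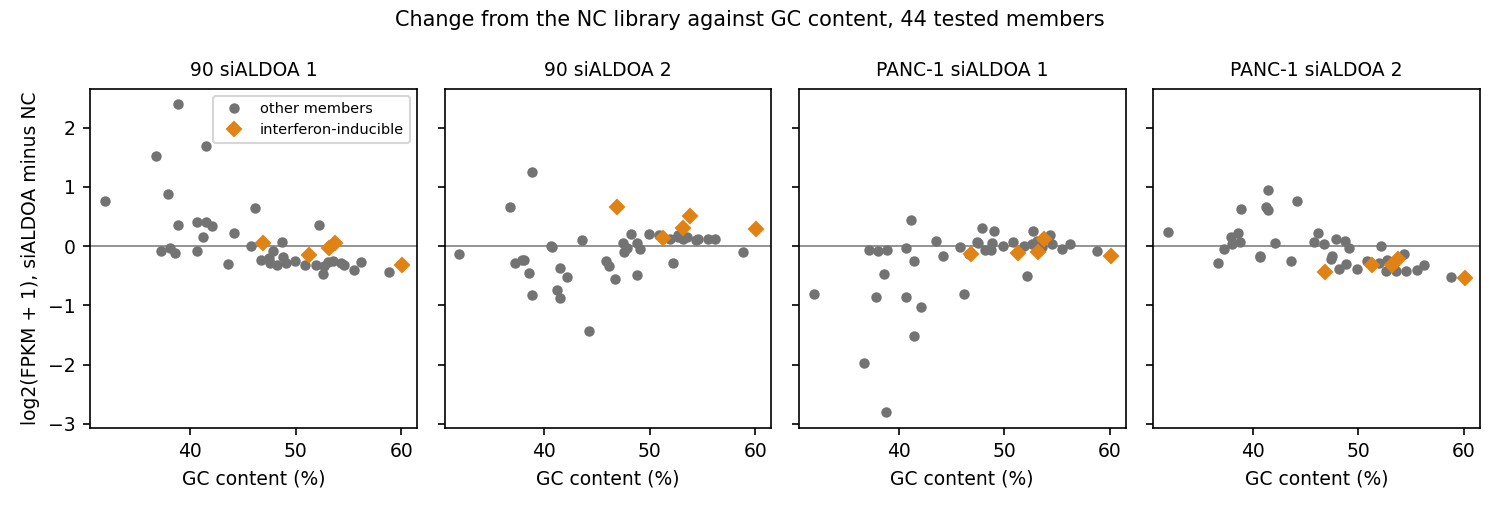
Change of each of the 44 tested members from the NC library of its line, in log2(FPKM + 1), against GC content in percent, with 1 panel per siALDOA library; interferon-inducible members are orange diamonds. Members of low GC content spread most, from -2.81 in siALDOA 1 of PANC-1 to 2.39 in siALDOA 1 of 90, both PSMC6.

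The members with the widest gaps between siALDOA 1 and siALDOA 2 of a line were PSMC6, PSME4, PSMA3 and PSMD1, named after their values were seen. Of these, PSMD1 has a middle GC content (44.2%) and the others a low one. PSMC6, an ATPase of the base, was at 12.1, 67.9 and 30.2 FPKM in 90 and at 49.0, 6.15 and 51.7 FPKM in PANC-1. PSMA3, of the alpha ring, was at 49.5, 144 and 79.2 FPKM in 90 and at 97.6, 24.0 and 79.6 FPKM in PANC-1. PSMD1, a scaffold of the base, was at 35.3, 41.3 and 12.5 FPKM in 90 and at 39.96, 35.7 and 68.2 FPKM in PANC-1. For all 3 genes siALDOA 1 was the highest library of 90 and the lowest of PANC-1. In 90, 6 of 44 members (13.6%) differed by at least 2-fold between siALDOA 1 and siALDOA 2, and in PANC-1 7 (15.9%), where 21.0% and 19.2% of all tested genes did.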

How the data were processed

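RNA of 2 PDAC lines was measured in 6 libraries. The values deposited by the authors are FPKM per gene. The submitters' processing notes name HISAT2, featureCounts and the build hg38. The sources used here do not give versions, annotation, gene lengths or strand use. Of 41769 rows, 1 had no name and was not used. Relative depth was recovered from microRNA, snoRNA and snRNA values, of which 97.2% to 97.7% fell on whole multiples of a step (up to 8, tolerance 0.03 of a step). Fragment counts of other genes were not rebuilt.

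Values were analysed as log2(FPKM + 1), which understates the changes of low genes. The 12592 genes whose mean reached 1 FPKM were fitted with limma 3.58.1 in R 4.3.3 with an intensity trend. Line and siALDOA over both lines came from a fit of both terms (3 residual degrees of freedom), effects within a line and their difference from 4 group means (2 residual degrees of freedom, the single NC library taken to vary as the siALDOA ones do). Calls used a threshold of 0.05 on the p adjusted by Benjamini-Hochberg over all tested genes. Ratios of exchanged subunits were compared by exact permutation over libraries. Exon overlaps, pseudogenes and GC content came from GENCODE v29, with GC content for 90.6% of tested genes. The fits were run on simulated data with known changes and independent noise per gene. That simulation lacks the shifts along GC content described above, so it does not cover them.

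The members and gene lists were chosen with earlier results of these data known. Values in every library are given for the interferon-inducible and constitutive catalytic genes, for the highest and lowest called member of each other role, for the 3 smallest siALDOA p per direction and for members the filter removed. Of other lists, up to 3 called genes per direction are named. Members and list genes given beyond this rule were added after their values were seen. Some genes of these lists are not reported here. Alternatives were other pseudocounts (0.1, 0.5), filters (none, a mean of 5 FPKM), scalings, a GC correction, no intensity trend, a replicate block and leaving out each library. Leaving out siALDOA 1 of both lines and a block with crossed numbers were added after seeing the data.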

Additional observations from a re-analysis of the deposited data

Results flagged for a closer look

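For 4 of the 44 tested members, both siALDOA libraries of 90 lay on one side of NC and both of PANC-1 on the other. PSMA2, PSMA3 and PSMB9 were above NC in 90 and below it in PANC-1, a pattern that 2.61% of all tested genes showed. PSMD11 was below NC in 90 and above it in PANC-1, as were 7.3% of all tested genes. Some of these distances from NC were small. In 90 they were 0.010 for PSMA2 and -0.035 for PSMD11 in siALDOA 2, and 0.057 for PSMB9 in siALDOA 1, on the log2 scale. The difference of the siALDOA effects, PANC-1 minus 90 in log2(FPKM + 1), was -0.72 (SE 0.56) for PSMA2, -2.23 (SE 1.19) for PSMA3, -0.64 (SE 0.56) for PSMB9 and 0.27 (SE 0.31) for PSMD11. None passed the limma test of that difference, with an adjusted p of 1.0 for each.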

How the results depend on the processing

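The count of 16 members that differed between PANC-1 and 90 was within 1.5 times under 10 of 18 alternatives. It was 10 with median-ratio scaling, 8 with the replicate block and 6 to 13 when 1 library was left out, where 1 residual degree of freedom fewer remained. The deviations of same-numbered siALDOA libraries correlated at -0.86 across 12592 genes, so the numbers were not taken to pair the libraries. A block with crossed numbers, added after seeing the data, gave 31, PSMB6 and PSMB7 among them. PSMB10 reversed when a library was left out, with values from -0.26 to 0.082. For siALDOA against NC, 0 members were called under every alternative run. PSMD5 went to -0.027 with the GC correction and to -0.041 without siALDOA 1 of both lines, and the leave-one-out values ran from -0.30 to 0.55 for PSMD5, from -0.061 to 0.21 for PSMD11 and from -0.32 to 0.79 for PSME4. The ends for PSMD5 and PSMD11 are their siALDOA effects within 90 and within PANC-1. Without the NC library of a line, the coefficient rests on the other line alone. The cause of the other shifts was not tested. The log2 ratio difference between the lines stayed between -3.08 and -2.82 for PSMB8 to PSMB5, -1.98 and -1.71 for PSMB9 to PSMB6 and -0.65 and -0.46 for PSMB10 to PSMB7. With the replicate block as a sign-flip test the exact p of these ratios was 0.25, the smallest it allows. Depth does not limit the tested members, whose lowest value is 2.19 FPKM, while PSMA8 and PSMB11 lie below the level of 3 fragments on 1 kb.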
